A study of Verbena bonariensis with 6 samples.

Results

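BEL1-like and KNOX homeodomain factors are described here in leaves of V. bonariensis under cold. Their members were the clusters that the authors' table puts in the HB (homeobox) family and whose best protein match names BEL1, knotted, KNAT, KNOX or POTH1, without the words leucine zipper. A cluster is an assembled transcript numbered by the authors, and its best matches are the closest proteins of other species in the NR and Swissprot collections. The rule found 77 of the 9740 clusters of the table and of its 349 HB clusters. They had 39 different NR matches, of which 16 were shared by at least 2 clusters, and 17 of the matched proteins were from Sesamum indicum. By the words of their matches, 56 clusters were BELL (BEL1-like), 2 were KNOX of class I and 19 were KNOX of class II. Gene names below are therefore those of the matched proteins, not of V. bonariensis genes.

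BELL and KNOX proteins belong to the TALE homeodomain family of plants, whose homeodomain carries an extended loop. A BELL protein usually binds DNA as a dimer with a KNOX protein, and the partners enter the nucleus together. In Arabidopsis, class I KNOX genes keep cells of the shoot meristem undifferentiated and are silent in most of the leaf blade, while class II KNOX genes are expressed broadly in differentiated organs. OVATE family proteins bind members of both groups, and AS1 (Asymmetric leaves 1) keeps class I KNOX genes off in developing leaves.

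All 6 libraries came from leaves of 3-month-old plants of the strain Finesse, raised with 16 h of light at 25°C by day and 16°C by night according to the labels. The 3 control libraries were from plants left in those conditions. The 3 cold libraries were from plants chilled for 24 h at 4°C before 4 h at -4°C, and the series states 3 biological replicates for each condition. The table used here held 991180 to 1213366 estimated counts in control libraries and 722556 to 791041 in cold libraries, 5.85% to 5.86% and 5.52% to 5.53% of all reads of a library. In whole leaves, fewer cells of a type and less RNA per cell cannot be told apart. Leaf markers were found in every library: the 31 clusters named GLK, regulators of chloroplast development, summed to 120 to 127 FPKM in control and 106 to 107 in cold, and 17 clusters for plastid sigma factors summed to 97.0 to 97.2 and 256 to 271. The 27 YABBY clusters, markers of lateral organs, summed to 33.7 to 39.1 FPKM in control and 55.0 to 63.2 in cold. The 2 clusters named for DEFICIENS, a petal and stamen gene, were at 1.20 to 1.83 FPKM in control and at 0 to 0.08 in cold, and the 3 named SHORT-ROOT at 20.2 to 22.8 and 11.7 to 12.9. No cluster of the table carried the name SHOOT MERISTEMLESS, WUSCHEL itself (as against WUSCHEL-related homeobox genes), AGAMOUS, PISTILLATA, WOX5 or PLETHORA. The part of cell composition in the results was not tested.

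In cold, the members moved in both directions, and 1 BELL cluster dominated. Of the 77 clusters, 46 had enough counts for edgeR's quasi-likelihood test, and at an adjusted p under 0.05 over all clusters tested 14 were higher in cold, 12 were lower and 20 were not called. Of all 5004 clusters tested, 21.9% were called higher and 23.6% lower. The 46 members had a median log2 fold change of -0.09, against -0.14 for all tested clusters. For the 31 tested BELL clusters, 10 were higher and 7 lower with a median of 0.50. Of these 31, 3 had an animal protein as the higher-scoring match, and 1 of the 3 was higher. For the 15 tested KNOX clusters of class II, 4 were higher and 5 lower with a median of -0.44. These counts use TMM scaling within the table. Scaling by whole-library totals moved the median of all clusters by -0.23 on the log2 scale and gave 14 higher and 17 lower among the members. The 31 clusters without a test had at most 40.5 estimated counts in any library, and 3 of them had no reads.

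**Figure D1:**
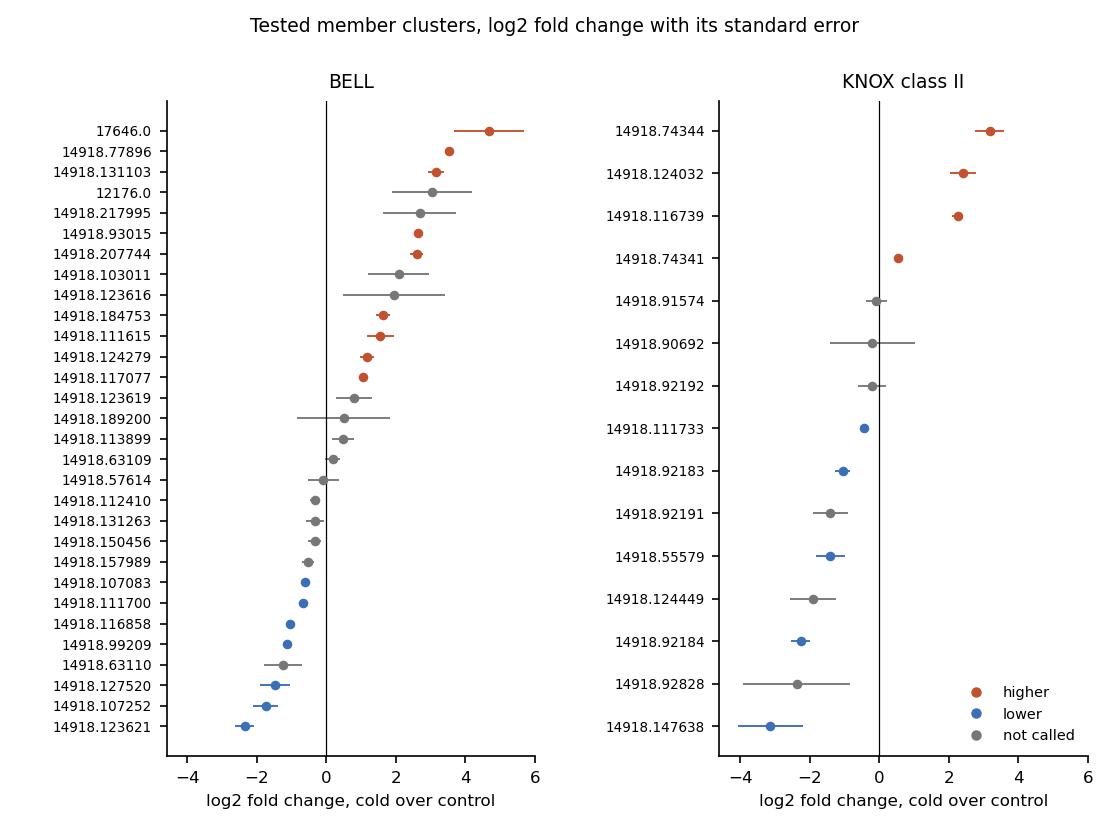
Log2 fold change of cold over control, with its standard error, for the tested BELL clusters (left) and KNOX class II clusters (right), each row 1 cluster and the colour its call at an adjusted p under 0.05. Cluster-14918.99740, which had estimated counts in cold alone, is not drawn, and the 10 higher and 7 lower calls of the BELL panel include that cluster.

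Summed over all members, the level per length was 867 ± 28.0 FPKM (SD, n = 3) in control against 1137 ± 19.0 under cold, and the groups did not overlap. FPKM is the read level of a cluster after scaling for its length and for the depth of the library. The exact two-sided permutation test gave p = 0.1, the smallest value that 3 libraries against 3 allow. BELL clusters summed to 505, 522 and 526 FPKM in control and to 909, 890 and 929 in cold. Without Cluster-14918.77896 the members summed to 837 ± 27.8 FPKM in control and 847 ± 19.6 in cold, the groups overlapped, and the exact permutation p was 0.6. As CPM of the whole library the sums without it overlapped as well, at 909 ± 5.95 and 896 ± 12.7 (exact permutation p = 0.3). As normalized CPM they did not, with 15080 ± 143 in control and 17510 ± 226 in cold (exact permutation p = 0.1, the smallest possible), so this comparison depends on the scale. In counts, the members held 34.6% ± 0.18 of the reads on HB clusters in control and 47.6% ± 0.70 in cold. That share includes Cluster-14918.77896, which made up 7.69% ± 0.03 of the members' counts in control and 45.0% ± 0.48 in cold. The members' share of HB reads without that cluster was not tested.

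**Figure D2:**
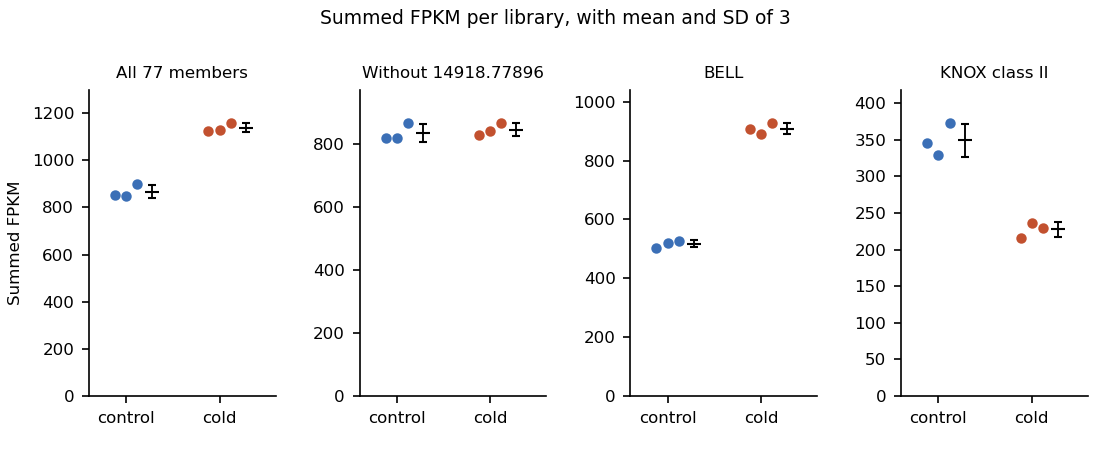
Summed FPKM in each library (points, with the mean and SD of 3 beside them) for all 77 members, for the members without Cluster-14918.77896, for BELL and for KNOX class II. The sum of all members is higher in every cold library, the sum without that cluster overlaps between the groups on this scale, and KNOX class II sums are lower in every cold library.

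Cluster-14918.77896 was the BELL cluster with the strongest signal in cold. It is 2765 bases long with a predicted coding region of 1728 bases, and it matched an unnamed Coffea canephora protein in NR and BEL1-like homeodomain protein 1 (BLH1) of Arabidopsis in Swissprot. In Arabidopsis, BLH1 acts with KNAT3 in the response of germinating seeds to abscisic acid. Its normalized CPM, the counts scaled to the tested reads of the table with TMM factors, were 1239, 1258 and 1271 in control and 14560, 14080 and 14380 in cold. Every cold library was thus far above every control library, and the replicates lay close together. The log2 fold change was 3.51 with a standard error of 0.03 (edgeR adjusted p = 1.52e-07), or 3.28 with whole-library totals. Its FPKM rose from 30.1 ± 0.21 to 290 ± 6.47, and its rank by FPKM among the 9740 clusters moved from 345 to 26. By normalized CPM it ranked 136 in the control mean and 1 in the cold mean. It held 3.47% ± 0.09 of the members' summed FPKM in control and 25.5% ± 0.69 in cold.

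The 15 clusters that shared a Sesamum indicum BLH1 protein as NR match were the largest group under 1 match. Their calls went both ways: 2 were higher, 2 were lower, 5 were tested and not called and 6 were not tested. It was the only match with member clusters called in both directions, but most of the 39 had fewer than 2 tested member clusters and could not show this. This match had 9 tested member clusters, and no other had more than 4. Forms with the longest unbroken coding region predicted under this match, 2154 bases, are called full-length here. Cluster-14918.107083, of 3079 bases, was the most abundant of them. It had 5027, 5336 and 5210 normalized CPM in control and 3498, 3449 and 3270 in cold, without overlap (log2 fold change -0.61, SE 0.04, adjusted p = 0.000142). A second full-length form, Cluster-14918.123621, had the same coding length and is 3325 bases long. It went from 1067, 784 and 861 normalized CPM to 178, 235 and 118 (log2 fold change -2.35, SE 0.28, adjusted p = 0.00132).

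Cluster-14918.99740 of the same match had estimated counts in cold alone. None were assigned to it in the 3 control libraries, and it had 2062, 2115 and 2357 normalized CPM in the cold libraries. Against a floor of 3 counts over the control libraries together, its estimated counts were at least 2505-fold higher in cold (edgeR adjusted p = 1.75e-05). That floor covers counting error only. It does not cover how the authors' counting may have divided reads among near-identical clusters of this match, which was not tested. It is 1568 bases long. Its predicted coding region covers 1080 bases, begins 2 bases from the end of the cluster and is followed by 486 bases, as in the full-length forms. The homeobox domains were annotated on it, and its coding region is 1074 bases shorter than that of the full-length forms. Which stretch of the full-length form it covers was not compared by sequence. Cluster-14918.131103 rose as well, from 18.2, 24.0 and 22.6 normalized CPM to 215, 179 and 189 (log2 fold change 3.15, SE 0.23, adjusted p = 0.000172). Its predicted coding region is split into segments of 1152 and 591 bases, with 512 bases before and 525 after. The lengths before and after are those of Cluster-14918.77896. Both clusters also carried a Homeo-prospero domain annotation, which no other cluster of the Sesamum match had. No sequence was at hand to compare these clusters, so whether Cluster-14918.131103 belongs with the rest of its match was not tested.

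**Figure D3:**
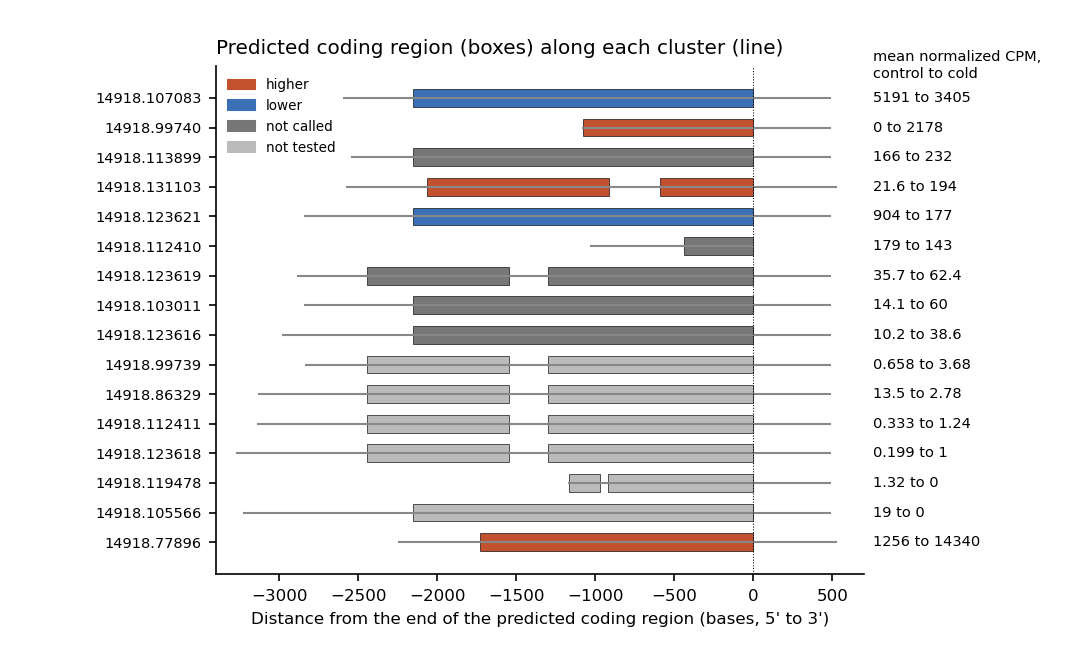
Predicted coding regions (boxes) along the 15 clusters matched to the Sesamum indicum BLH1 protein and along Cluster-14918.77896 (bottom), in bases from the end of the coding region, with mean normalized CPM in control and cold at the right. Clusters are lined up by the predicted end of coding, without a sequence comparison; the coding region of Cluster-14918.99740 spans 1080 bases and that of full-length forms 2154.

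Added together, those 15 clusters changed little. Their summed FPKM was 148 ± 0.32 in control and 168 ± 4.26 in cold. The summed counts gave a log2 fold change of 0.17 (SE 0.02, adjusted p = 0.000172) with TMM scaling, which turned to -0.25 with whole-library totals and to -0.16 with the totals of the table, so no direction is given for the sum. The shares inside the match did change. Cluster-14918.99740 held 0% of the summed count in every control library and 31.5%, 33.0% and 36.0% in the cold libraries (edgeR diffSpliceDGE, adjusted p = 4.37e-22). Cluster-14918.123621 held 16.3%, 11.9% and 13.1% in control and 2.73%, 3.68% and 1.80% in cold (adjusted p = 4.08e-07). Cluster-14918.131103 rose from a mean of 0.33% to 2.99% (adjusted p = 0.00124). Cluster-14918.107083 held 79.2% ± 2.19 in control and 52.4% ± 2.18 in cold without overlap, but its adjusted p of 0.178 did not pass. The 6 clusters with a full-length match together held 96.1% ± 0.21 in control and 60.2% ± 2.77 in cold.

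**Figure D4:**
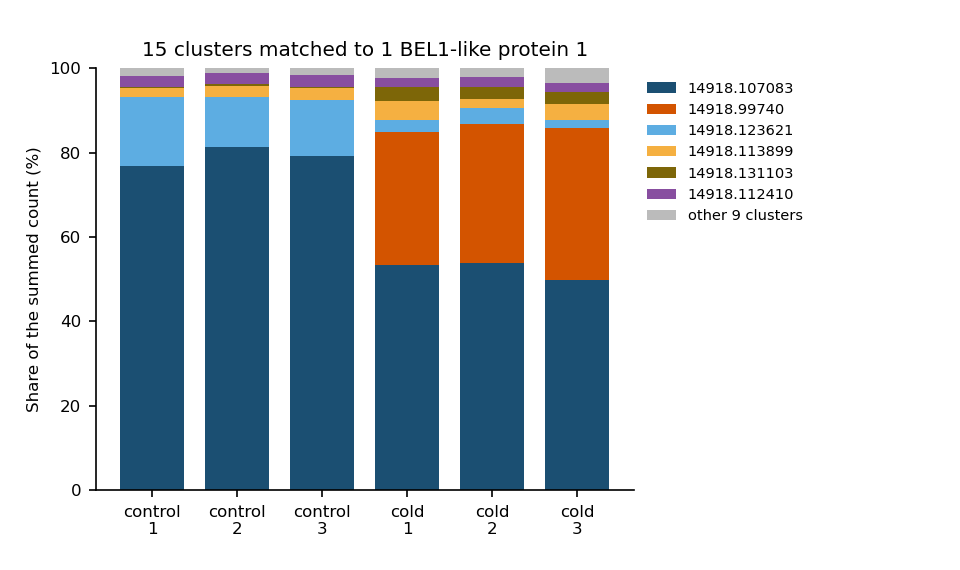
Share of the summed count, in percent, of each cluster matched to the Sesamum indicum BLH1 protein in the 3 control and 3 cold libraries, with the 9 clusters of lowest share added together. Cluster-14918.99740 is at 0% in control and between 31.5% and 36.0% in cold.

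These were the only share changes called among the members. Of the 24 member clusters in 8 NR matches that could be tested, 2 were raised and 1 was lowered, beside 8.84% of the 3924 clusters tested over the whole table. Large shifts in other matches did not pass this test, but those named next passed with limma diffSplice, at adjusted p of 0.000479, 0.000479, 0.000724 and 0.00307 in the order given, so their call depends on the test. For 1 of the BEL1-like homeodomain protein 7 matches, Cluster-14918.124279 went from 31.5% to 57.7% (adjusted p = 0.502) and Cluster-14918.157989 from 68.0% to 38.9% (adjusted p = 0.579). For BEL1-like homeodomain protein 9 isoform X1, Cluster-14918.184753 went from 38.5% to 69.0% (adjusted p = 0.264) and Cluster-14918.63110 from 24.4% to 5.91% (adjusted p = 0.0863). Where reads of near-identical clusters were divided between them by the authors' counting, the shares carry that division.

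Other BELL clusters rose as well. Cluster-14918.93015 matched BLH2 of tomato, and in Arabidopsis BLH2 is SAWTOOTH 1, which limits growth of the leaf margin. It had 99.1, 117 and 109 normalized CPM in control and 652, 736 and 653 in cold (log2 fold change 2.65, SE 0.11, adjusted p = 2.36e-05). Cluster-14918.117077 matched the BEL1 homolog, named for the Arabidopsis gene that patterns the ovule integuments. It was among the most abundant members in control and went from 1649, 1739 and 1767 normalized CPM to 3498, 3428 and 3754 (log2 fold change 1.05, SE 0.05, adjusted p = 4.36e-05), or from 120 to 207 FPKM. The less abundant Cluster-14918.111615 under the same match had 37.1, 41.2 and 19.6 normalized CPM in control and 74.1, 118 and 94.6 in cold. The groups did not overlap, and the log2 fold change was 1.55 (SE 0.39, adjusted p = 0.0219). Its adjusted p was 0.0706 without cold replicate 2, 0.0553 without cold replicate 3 and 0.0640 without control replicate 1.

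Of 6 tested clusters with BEL1-like homeodomain protein 9 as NR match, 2 rose and 4 were not called, beside 21.9% called higher over all clusters tested. In Arabidopsis this gene is also called BELLRINGER, PENNYWISE or REPLUMLESS and acts in the shoot meristem and the fruit. Cluster-14918.184753, matched to isoform X1, had 226, 159 and 153 normalized CPM in control and 468, 583 and 602 in cold (log2 fold change 1.62, SE 0.20, adjusted p = 0.00146). Cluster-14918.207744, matched to isoform X2, had 49.7, 48.0 and 37.7 in control and 251, 296 and 272 in cold (log2 fold change 2.60, SE 0.19, adjusted p = 0.000186). The other 3 clusters of isoform X1 were not called, with log2 fold changes from -1.25 to 0.50. The remaining one, Cluster-14918.217995 of a Brachypodium match, was not called either (log2 fold change 2.68, adjusted p = 0.089). It scored 500 for the Drosophila protein caupolican and 151 for the plant protein. Cluster-14918.124279, of BEL1-like homeodomain protein 7, rose from 104, 73.9 and 89.3 to 215, 176 and 205 normalized CPM (log2 fold change 1.16, SE 0.20, adjusted p = 0.00569).

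A further 8 clusters, counted as BELL by the words of their NR match, had an animal protein as best Swissprot match. It was TGIF2 of mouse, or caupolican or homothorax of Drosophila, beside a BEL1-like plant protein in NR. The animal match had the higher score throughout. Scores were 326 against 171 for TGIF2, 500 to 521 against 151 for caupolican and 1325 against 202 for homothorax. Their BELL name thus rests on the lower-scoring match. These 8 clusters were of low level, summing to 0.38 ± 0.13 FPKM in control and 2.33 ± 0.39 in cold. Of the 3 that could be tested, Cluster-17646.0 was called higher, with 2.37, 0.81 and 0 normalized CPM in control and 16.4, 37.7 and 24.9 in cold (log2 fold change 4.67, adjusted p = 0.0124). The adjusted p was 0.0621 without control replicate 2. The source of these transcripts was not tested.

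Apart from the BLH1 forms above, 5 BELL clusters fell. Cluster-14918.99209 matched an unnamed Citrus protein in NR and BEL1 in Swissprot. It had 556, 584 and 573 normalized CPM in control and 297, 243 and 236 in cold (log2 fold change -1.15, SE 0.12, adjusted p = 0.000666). Cluster-14918.107252, matched to another BEL1 homolog of Sesamum, fell from 75.6, 83.8 and 74.3 to 14.3, 30.5 and 22.9 (log2 fold change -1.75, SE 0.37, adjusted p = 0.0113). No homeobox domain was annotated on it, and its edgeR adjusted p was 0.0542 with the replicate number as a block. BEL1 homologs were thus called both higher and lower, under different matches.

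BEL1-like homeodomain protein 4 is SAWTOOTH 2 in Arabidopsis, where it acts with SAWTOOTH 1 in the leaf margin. Cluster-14918.116858 of this name had 387, 478 and 423 normalized CPM in control and 203, 218 and 204 in cold (log2 fold change -1.04, SE 0.12, adjusted p = 0.00101). Cluster-14918.127520 had the same NR name but BLH2 in Swissprot, as Cluster-14918.93015 above did. It had 71.0, 105 and 120 in control and 18.7, 48.8 and 37.1 in cold, without overlap (log2 fold change -1.49, SE 0.43, adjusted p = 0.0357). Its adjusted p was 0.0585 without cold replicate 1, 0.0905 without cold replicate 3, 0.0940 with control replicate 2 left out and 0.106 without control replicate 3. Cluster-14918.111700 matched BEL1-like homeodomain protein 7 in NR and protein 6 in Swissprot; in Arabidopsis protein 6 acts with KNAT7 in secondary walls. It had 295, 310 and 307 normalized CPM in control and 175, 179 and 220 in cold (log2 fold change -0.67, SE 0.13, adjusted p = 0.00886).

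**Figure D5:**
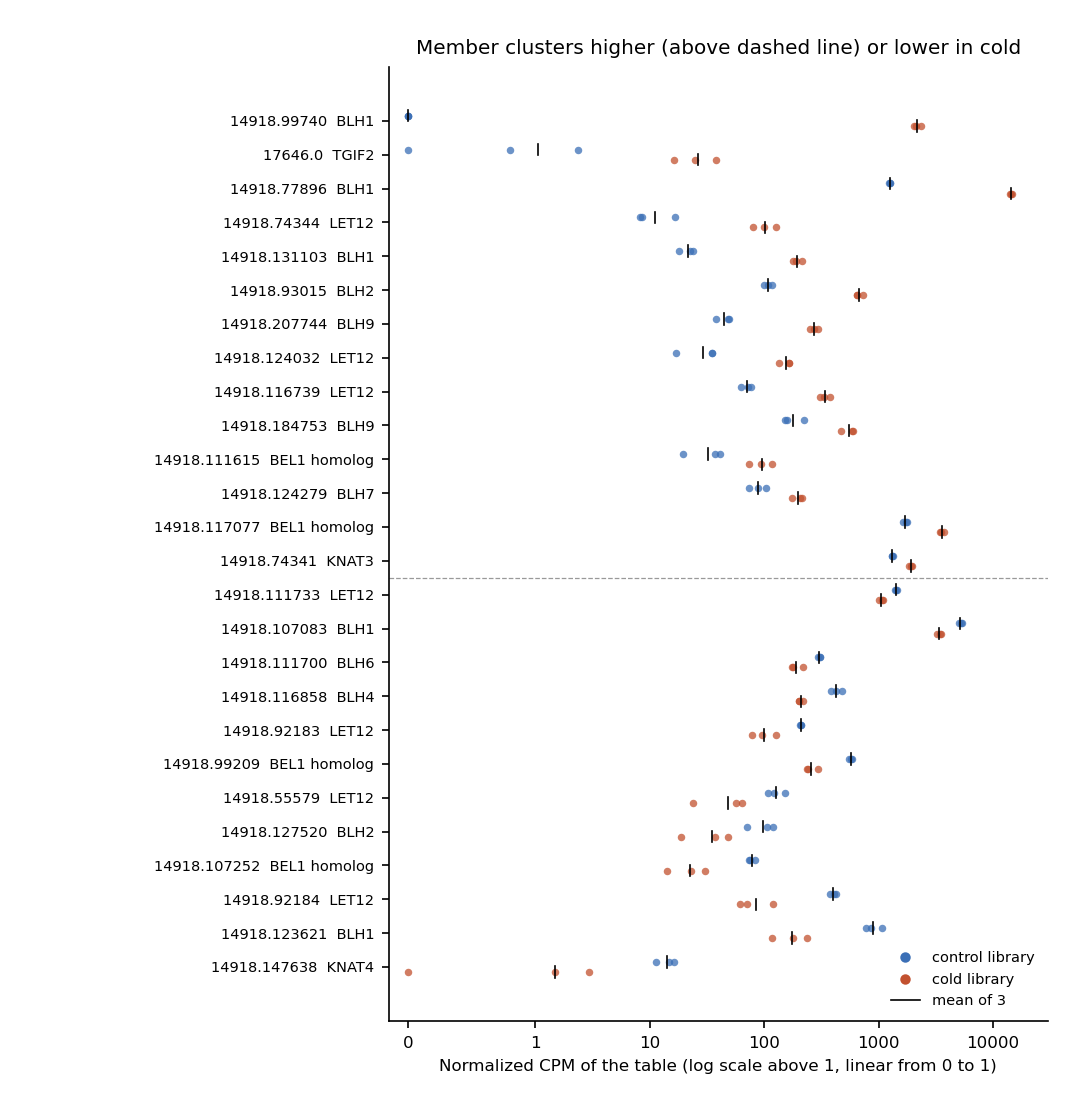
Normalized CPM of the 26 called member clusters in each control and cold library (points) with the mean of 3 (bar), on an axis that is logarithmic above 1 and linear below. The 14 clusters above the dashed line were higher in cold and the 12 below were lower, and names are those of the Swissprot match. The 2 groups of libraries do not overlap in any row, but rows were chosen by their call, so this is no separate result.

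KNOX clusters of class I were close to silent. Both matched KNAT6, which in Arabidopsis acts in the shoot meristem and at organ boundaries. Together they had 3 to 6 estimated counts in each control library and 6 to 8 in each cold library, or 0.25 to 0.58 FPKM and 0.74 to 0.88 FPKM, and neither had enough reads for the test. At this depth no difference was tested.

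KNOX clusters of class II carried nearly all KNOX reads, and 4 of the 6 tested clusters with a LET12 protein as NR match fell. Over all clusters tested, 23.6% were called lower. Cluster-14918.116739, Cluster-14918.124032 and Cluster-14918.74344, described below, had LET12 as Swissprot match but not in NR, and were called higher. LET12 is a class II KNOX gene of tomato. Cluster-14918.111733 had the highest FPKM of them in both conditions. It had 1414, 1402 and 1461 normalized CPM in control and 1072, 1086 and 1000 in cold (log2 fold change -0.44, SE 0.05, adjusted p = 0.00147), or 65.5 and 40.7 FPKM. Cluster-14918.92184 went from 422, 412 and 379 to 71.2, 62.3 and 119 normalized CPM (log2 fold change -2.25, SE 0.27, adjusted p = 0.00142). It shared its match with Cluster-14918.55579, which had 123, 109 and 152 in control and 24.0, 56.6 and 64.7 in cold (log2 fold change -1.41, SE 0.42, adjusted p = 0.0376). Both of these short clusters, of 671 and 665 bases, carried the KNOX1 and KNOX2 domains and no homeobox annotation. The adjusted p of Cluster-14918.55579 was 0.0717 without cold replicate 2, 0.0812 without control replicate 1, 0.0685 with control replicate 2 left out and 0.106 without control replicate 3.

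Cluster-14918.92183, matched to a partial LET12 protein, held the KNOX2, ELK and homeobox domains in 555 bases. It had 205, 211 and 210 normalized CPM in control and 78.0, 95.4 and 128 in cold (log2 fold change -1.06, SE 0.22, adjusted p = 0.0118). Cluster-14918.91574, of LET12 isoform X2, had 106 to 221 normalized CPM in control and 157 to 188 in cold, and was not called (adjusted p = 0.846). With isoforms X1 and X2 of that LET12 protein summed, the log2 fold change was -0.20 (SE 0.06, adjusted p = 0.0105), and -0.63 with whole-library totals.

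Clusters with a KNAT3 protein as NR match, a class II gene known for its broad expression in Arabidopsis leaves, were called higher in 4 of the 7 that could be tested. Over all clusters tested, 21.9% were called higher. Cluster-14918.74341, with a Prunus mume match, had 1303, 1302 and 1330 normalized CPM in control and 1930, 1850 and 1975 in cold (log2 fold change 0.55, SE 0.04, adjusted p = 0.000267). Scaled by whole-library totals, it changed by 0.31 on the log2 scale. The 3 clusters matched to isoforms X1, X2 and X3 of a Nelumbo nucifera KNAT3 rose more. Cluster-14918.116739 went from 73.0, 76.3 and 62.9 normalized CPM to 337, 376 and 307 (log2 fold change 2.26, SE 0.16, adjusted p = 0.000151). The other two, Cluster-14918.124032 and Cluster-14918.74344, had log2 fold changes of 2.41 (SE 0.37, adjusted p = 0.00355) and 3.18 (SE 0.42, adjusted p = 0.002). Summed over the isoforms the log2 fold change was 2.61 (SE 0.09, adjusted p = 3.85e-08). In Swissprot, all 3 had LET12 as best match, so the name rests on the collection used.

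The other 3 KNAT3 clusters did not pass, with log2 fold changes of -2.38, -1.40 and -0.21. Cluster-14918.92828, with a tomato match, had 17.1 to 35.4 normalized CPM in control and 0 to 15.0 in cold (adjusted p = 0.265). Cluster-14918.92191, with a Malus domestica match, had 40.9 to 63.2 in control and 9.93 to 29.9 in cold (adjusted p = 0.0654). The KNOX cluster Cluster-14918.147638, with an HD1 match and KNAT4 as Swissprot name, was called lower at a low level, with 14.9, 16.4 and 11.4 normalized CPM in control and 2.98, 1.49 and 0 in cold (log2 fold change -3.13, SE 0.93, adjusted p = 0.0378). That call was lost without cold replicate 1, 2 or 3 or control replicate 3, with adjusted p of 0.0593, 0.125, 0.0577 and 0.0943. Its HD1 match was shared with 4 HB clusters whose names did not meet the rule. The largest of those, Cluster-14918.124905, had a mean of 1212 normalized CPM in control and 389 in cold (log2 fold change -1.64, SE 0.05, adjusted p = 1.14e-05).

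Added together, the class II clusters depended on the scale. Summed FPKM were 349 ± 22.5 in control and 227 ± 10.1 in cold, while summed normalized CPM were 3960 ± 84.3 in control and 4061 ± 13.0 in cold, both without overlap (exact permutation p = 0.1 each, the smallest possible). As CPM of the whole library the sums were 239 ± 5.87 and 208 ± 1.09, with cold below control. FPKM weights short clusters strongly. For example, Cluster-14918.92192, of 272 bases and 36.3 to 61.9 normalized CPM in control, gave 77.6 ± 20.9 FPKM of the control sum and 44.7 ± 11.4 of the cold sum. Other clusters moved the FPKM sum as well. The LET12 match of Cluster-14918.92184 and Cluster-14918.55579 went from 76.1 ± 2.42 to 15.6 ± 5.30 FPKM, while Cluster-14918.74341 rose from 66.9 ± 0.73 to 82.2 ± 3.05. What made the scales differ was not tested.

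Summing all clusters under each NR match, so that reads divided among near-identical clusters are counted together, also gave calls in both directions. Of the 31 matches tested, 14 were higher, 11 were lower and 6 were not called, while over all 2143 matches tested 36.2% were higher and 38.2% lower. With whole-library totals, which moved the median of all matches by -0.42, the split was 12 higher and 15 lower. Matches with only 1 cluster had log2 fold changes 0.19 higher, in the median, than in the test by cluster, since the TMM factors of the sums differ. The largest rises were those of the BEL1-like homeodomain protein 5 match with TGIF2 as animal name (log2 fold change 3.88, SE 0.62, adjusted p = 0.000499) and of the Coffea match that is Cluster-14918.77896 alone. The clusters under the former scored 326 for TGIF2 and 171 for the plant protein. They summed to 0.09 ± 0.08 FPKM in control and 0.97 ± 0.12 in cold. BEL1-like homeodomain protein 11, with 6 clusters too low to test apart, rose as a sum from 0.49 ± 0.39 to 2.16 ± 0.38 FPKM (log2 fold change 2.60, SE 0.59, adjusted p = 0.00398). Among BEL1-like homeodomain protein 9 matches, the Brachypodium match rose with a log2 fold change of 2.65 (SE 0.55, adjusted p = 0.00231). Its clusters had caupolican as animal name, with scores of 500 to 521 against 151 for the plant protein. Isoforms X1 and X2 of the Sesamum protein together rose with 1.28 (SE 0.08, adjusted p = 8.81e-07).

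The sum for the BEL1-like homeodomain protein 7 match of Cluster-14918.124279 was called higher (log2 fold change 0.47, SE 0.10, adjusted p = 0.00357), but with whole-library totals it was 0.05 (adjusted p = 0.696). Among the matches that fell, the LET12 match of Cluster-14918.92184 and Cluster-14918.55579 went from 76.1 ± 2.42 to 15.6 ± 5.30 FPKM (log2 fold change -1.81, SE 0.18, adjusted p = 2.79e-05). The HD1 match fell from 71.9 ± 1.34 to 19.1 ± 0.75 FPKM, and the member held less than any other tested cluster of it in cold. The HD1-like match with KNAT7 as Swissprot name is Cluster-14918.124449 alone, which was not called in the test by cluster (log2 fold change -1.90, adjusted p = 0.0599). In the test of sums it was called lower, going from 1.30 ± 0.50 to 0.28 ± 0.19 FPKM (log2 fold change -1.72, SE 0.56, adjusted p = 0.0215). The adjusted p of this sum was 0.0627 without cold replicate 2, 0.058 without cold replicate 3, 0.0664 with control replicate 2 left out and 0.082 without control replicate 3. The KNAT3 match of Malus domestica, which is Cluster-14918.92191 alone and was not called in the test by cluster, was called in the test of sums (log2 fold change -1.21, SE 0.40, adjusted p = 0.0242), but not without control replicate 1 (adjusted p = 0.0658) or control replicate 2 (adjusted p = 0.0803).

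The annotation held features that the rule did not use. A homeobox annotation was found on all 14 higher clusters, 8 of the 12 lower ones, 16 of the 20 not called and 24 of the 31 not tested. The coding region was predicted by a protein match in 13 of the 14 higher clusters, 4 of the 12 lower ones, 15 of the 20 not called and 21 of the 31 not tested. The higher clusters were 570 to 3140 bases long with a median of 1540 and the lower ones 555 to 3325 with a median of 1282. These are descriptions of assembled clusters, several of which share a match, and no difference between the classes was tested.

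Known partners and regulators of BELL and KNOX proteins moved in both directions. Of 12 tested clusters listed as OVATE family proteins, 5 were higher and 4 lower, beside 21.9% and 23.6% of all clusters. All of the higher ones but Cluster-40659.1 shared 1 OFP6-like NR match, so they may not be separate genes. The OFP6-like Cluster-14918.140712 went from a mean of 36.3 to 371 normalized CPM (log2 fold change 3.35, SE 0.19, adjusted p = 7.53e-05), while the OFP1 Cluster-14918.154740 went from 241 to 26.8 (log2 fold change -3.17, SE 0.32, adjusted p = 0.000651). Of the 4 lower clusters 1 was annotated as a heat stress factor besides. Of the 2 tested clusters for AS1, the PHANTASTICA match Cluster-14918.69539 fell from 207 to 61.0 (log2 fold change -1.76, SE 0.25, adjusted p = 0.00267), and the other was not called. The 3 clusters for AS2 (Asymmetric leaves 2) were too low to test. The cluster for BLADE-ON-PETIOLE, Cluster-14918.22744, rose from 63.1 to 386 (log2 fold change 2.61, SE 0.17, adjusted p = 0.000109). In Arabidopsis, BLADE-ON-PETIOLE proteins restrict class I KNOX genes at the leaf base.

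For the CUP-SHAPED COTYLEDON genes, which set organ boundaries, 2 of 4 tested clusters were higher and 1 lower. Beside this and the counts below stand 21.9% higher and 23.6% lower over all clusters tested. Of 12 tested clusters for CURLY LEAF and SWINGER, histone methyltransferases that silence KNOX genes in Arabidopsis leaves, 1 was higher and 4 were lower, and 2 of the 8 tested YABBY clusters were higher. Among the remaining HB clusters, 16 of 92 tested leucine zipper clusters were higher and 21 lower, and 5 of the 7 tested WUSCHEL-related clusters were lower. The other 34 tested HB clusters had 6 higher and 12 lower. Their median log2 fold changes were -0.25, -2.36 and -1.28, against -0.09 for the BELL and KNOX members. Clusters that share a match were counted apart, so these are not counts of genes. The lower Cluster-14918.92892 and Cluster-14918.88725 shared 1 match to a WUSCHEL-related homeobox protein. In the CURLY LEAF and SWINGER list, the higher Cluster-14918.42610 and the lower Cluster-14918.42760 shared 1 match.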

How the data were processed

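Leaf RNA of 3 control and 3 cold libraries was compared. Members and lists were chosen with earlier results of these data known. The authors deposited a table of transcription factor clusters with estimated counts, deposited without normalization and often not whole, and with FPKM values, which the authors scaled to cluster length and library reads. The submitters' processing notes name Bowtie2 2.0.6 and TopHat2 2.0.12, without their roles, and which assembler, counting program or build was used is not given in the sources used here. Since the TruSeq kit is not stated to keep strand, overlapping antisense transcripts cannot be told apart. Columns of the authors' own comparison (log2 ratio, q value, direction) were not used. For day and night temperatures, the labels and the paper differ, and the labels were followed.

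Lines of the same cluster were merged, counts were rounded, and edgeR 4.0.16 in R 4.3.3 was run on all clusters (filterByExpr with a minimum count of 10, TMM, quasi-likelihood, condition as the only term, Benjamini-Hochberg adjustment, threshold 0.05). The same fit was made on counts summed by NR match, and diffSpliceDGE compared clusters within a match. A standard error is the size of a log2 fold change divided by the root of its F statistic, and the common biological coefficient of variation was 0.639. Normalized CPM are counts scaled to a library's tested reads times its TMM factor. Whole-library totals, 16956013 to 20695680 in control and 13076050 to 14327056 in cold, were recovered from count, FPKM and length with a median misfit of at most 0.029%. The floor is 3 counts over a group and covers counting error only. Replicates differed by more than sampling noise.

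Alternatives were RLE factors, table totals, whole-library totals, DESeq2 1.42.0, limma 3.58.1 on log2(FPKM + 1) and log2(FPKM + 0.1), limma diffSplice, no filter, a stricter filter, a block for the replicate number, leaving out each library, an adjusted p under 0.01 and membership by Swissprot alone. Sums over isoforms were added after seeing the data. Tests were also run on simulated data. Clusters were named in the text by a rule: all called members or, above 20, the 10 largest changes in each direction, the 10 most abundant members, members with at least 20% of the counts of their match, matches whose sum passed, and the largest share changes of a match. Cluster-14918.124905 and the partner clusters were named after their values were seen. Plots were drawn with matplotlib 3.10.9 in Python 3.11.15.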

Additional observations from a re-analysis of the deposited data

How the results depend on the processing

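Of the 26 called member clusters, 19 kept their direction and call under every alternative run, including an adjusted p under 0.01, and 7 lost the call under at least 1, of which Cluster-14918.92183 at that threshold alone. All 3 share calls were kept. Of the 25 called match sums, 21 were kept and 3 lost their call in at least 1 alternative. The sum over the 15 clusters of the Sesamum BLH1 match reversed, to -0.16 with table totals and -0.25 with whole-library totals, as both scalings lower all fold changes together. The lower clusters numbered 21 with limma on log2(FPKM + 1) and 21 on log2(FPKM + 0.1), and 7 at an adjusted p under 0.01. With limma diffSplice, 7 shares were raised and 4 lowered, and with no filter 2 were lowered; the causes were not tested. Leaving out 1 library at a time gave 14 higher clusters each time and 9 to 12 lower ones, 14 to 15 higher and 9 to 12 lower sums, and 2 raised shares each time with 1 to 2 lowered. DESeq2 called 17 clusters higher and 15 lower.

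The replicate numbers did not pair the libraries: deviations from the group means correlated at -0.03, -0.01 and -0.005 for the same number. With the replicate number as a block, 12 clusters were higher and 8 lower, 14 sums were higher and 9 lower, and 2 shares were raised and 1 lowered. Depth limits the 31 untested clusters, among them both class I KNOX clusters.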
